A study of Mus musculus with 19 samples.

Results

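The endoplasmic reticulum (ER) folds secreted and membrane proteins with the help of 34 genes described here. They are chaperones and their partners, disulfide and proline isomerases, sensors of unfolded protein, Xbp1, genes of ER-associated degradation (ERAD) and subunits of the translocon. They were chosen by function from a table of 26506 mouse genes, by matching gene symbols and older names to Ensembl identifiers, and all 34 were found. The libraries came from whole homogenised kidney and liver of male mice, after poly(A) selection. The knockout (KO) mice were homozygous for loss of macroH2A1.1, one of the splice forms in which H2afy makes the histone variant macroH2A1, and the wild-type (WT) mice came from the same kind of mating of heterozygotes. The deletion was made in zygotes, in which soluble Cre enzyme removed the floxed exon 6b, and the line had at least 10 generations of backcrossing to C57BL/6J. The groups were 5 KO kidneys, 5 WT kidneys, 5 KO livers and 4 WT livers, and the liver of WT mouse 23 was not analysed here. The mice received a standard or a ketogenic diet, and the sources used here give neither the diet of each mouse nor their age.

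In a resting cell the chaperone BiP, the product of Hspa5, holds the ER sensors IRE1 (Ern1), ATF6 (Atf6) and PERK (Eif2ak3) inactive. When unfolded protein takes up BiP, IRE1 splices the mRNA of Xbp1 into the form that encodes an active transcription factor, ATF6 is cut free in the Golgi to enter the nucleus, and PERK slows translation. XBP1 and ATF6 then switch on chaperones, isomerases and ERAD genes. The liver, which secretes most plasma proteins, carries a large ER, and feeding and fasting are known to move these genes there. Gene counts take in all Xbp1 transcripts, so they do not show how much of it was spliced.

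ATF6 and XBP1 are known to act through the ER stress response element (ERSE), here searched as CCAAT, any 9 bases and CCACG, and its variant ERSE-II, searched as ATTGG, any 1 base and CCACG, on both strands. Promoters of 300 bases, from 250 bases before to 50 after the start of each gene, were found in RefSeq (GRCm38.p6) for 28 of the 34 members. ERSE stood in 10 of these 28 (35.7%), against 0.137% of all 27025 genes with a promoter in the table, and ERSE-II stood in Dnajb11 and Herpud1, against 0.0444% of all genes. The 10 were Hspa5, Hsp90b1, Dnajc3, Creld2, Calr, Canx, Pdia6, Ero1lb, Syvn1 and Derl3, and Hsp90b1 held the element at 2 places. The CCACG part alone, which lies within both elements, stood in 25 of 28 members and in 35.5% of all genes, and the core TGACGTGG of the XBP1 site stood in Txndc5 alone among the members, against 0.714% of all genes. No promoter was matched for Hyou1, Sil1, Manf, Atf6, Derl1 and Sec61a1. Below are the 250 bases before the start of Hspa5, the best known target, whose element began 65 bases before the start, and the elements with 20 flanking bases on each side of other members whose levels the results turn on. Each reads 5′ to 3′ on the strand of its gene, with the matched element in capitals, and a match on the opposite strand (Creld2, Calr and Derl3) reads as CGTGG, 9 bases and ATTGG.
Hspa5 (promoter, chr2:34771840-34772089, plus strand): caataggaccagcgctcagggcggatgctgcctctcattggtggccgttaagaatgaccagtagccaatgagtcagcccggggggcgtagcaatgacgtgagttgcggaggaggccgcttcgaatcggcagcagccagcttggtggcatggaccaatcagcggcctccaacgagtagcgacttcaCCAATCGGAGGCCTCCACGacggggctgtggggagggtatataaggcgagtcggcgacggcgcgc
Hsp90b1 (chr10:86705618-86705676, minus strand): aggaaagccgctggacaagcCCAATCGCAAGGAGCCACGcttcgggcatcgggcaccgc
Creld2 (chr15:88819500-88819558, plus strand): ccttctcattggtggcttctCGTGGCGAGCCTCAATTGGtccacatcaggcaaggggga
Calr (chr8:84847055-84847113, minus strand): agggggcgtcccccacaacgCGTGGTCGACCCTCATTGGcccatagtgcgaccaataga
Pdia6 (chr12:17266471-17266529, plus strand): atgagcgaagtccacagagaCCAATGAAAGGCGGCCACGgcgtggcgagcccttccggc
Syvn1 (chr19:6046512-6046570, plus strand): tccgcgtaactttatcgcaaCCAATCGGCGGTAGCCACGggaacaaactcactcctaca
Derl3 (chr10:75893222-75893280, plus strand): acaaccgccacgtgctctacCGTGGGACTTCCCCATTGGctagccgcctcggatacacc
Herpud1 (ERSE-II, chr8:94386357-94386407, plus strand): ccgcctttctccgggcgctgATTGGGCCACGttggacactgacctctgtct
Only exact matches to these letters were counted, so sites with a changed letter, in Hspa5 or any other promoter, are not included. A match describes the letters of the promoter and is no evidence that a factor bound there in these tissues.

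Totals ran over 25919138 to 35131720 counts in kidney and over 26084473 to 34806035 counts in liver, and every member was counted in each library, the lowest being Derl3 with 31 counts in 1 KO kidney. Levels below are counts scaled to the size of the library (CPM, after TMM scaling within a tissue), and libraries are given in the order of mice 13, 14, 15, 16 and 18 for KO and 19, 20, 22, 23 and 24 for WT, with no mouse 23 in liver. Both tissues carried their own markers. The sum of 10 hepatocyte genes was 103767 to 135575 CPM in KO livers and 110708 to 113584 CPM in WT livers, and that of 9 proximal tubule genes was 31394 to 37499 CPM in KO kidneys and 35814 to 38753 CPM in WT kidneys, against at most 3.40 CPM in any liver. The hepatocyte sum was 1151 to 1503 CPM in KO kidneys and 1189 to 1360 CPM in WT kidneys. H2afy, counted over the whole gene and so including the isoform that the deletion spares, was 49.0, 57.3, 57.4, 54.4 and 61.1 CPM in KO kidneys, against 90.8, 89.2, 82.4, 89.1 and 65.6 CPM in WT kidneys. In liver it was 43.9, 42.9, 51.6, 52.9 and 48.0 CPM in KO mice, against 86.4, 77.9, 74.6 and 53.5 CPM in WT mice, so in both tissues mouse 24 was the WT mouse closest to the KO mice. Since the counts take in both isoforms, they do not check the genotype of this mouse, whose libraries are in the WT values throughout unless said otherwise. The log2 fold change of H2afy was -0.58 in kidney (SE 0.10, adjusted p = 0.135 in edgeR) and -0.61 in liver (SE 0.13, adjusted p = 0.384), so it did not pass the test.

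In kidney most ER folding genes were slightly lower in KO mice, and none passed the test. Of the 34 members 29 had a lower level in KO kidneys, against 47.8% of all 17269 genes tested, and their median log2 fold change was -0.14, against 0.01 over all genes. With edgeR's quasi-likelihood test and Benjamini-Hochberg adjustment over all genes, 0 members passed, where 0.00579% of all genes did, and the smallest adjusted p was 0.999. At an unadjusted p under 0.05 there were 6 members, all lower, where 2.95% of all genes reached it, and DESeq2 called 0 members as well. All 10 members of the chaperone group were lower, with a median of -0.24, and without mouse 23 they were 8 of 10 with a median of -0.14, Creld2 and Dnajb9 being above 0. The fold changes of markers of other cells lay on both sides of 0 in kidney, with 0 called. Above 0 were 7 of 8 hepatocyte genes tested (median 0.15), 7 of 11 plasma cell and B cell genes (0.03) and 4 of 7 endothelial genes (0.0045). Below 0 were 8 of 9 fibroblast genes (median -0.10), whose sum was 424 to 438 CPM in KO kidneys and 432 to 522 CPM in WT kidneys, and 7 of 7 macrophage genes tested (median -0.08), of 8 listed, whose sum was 156 to 193 CPM in KO kidneys and 167 to 216 CPM in WT kidneys. No fibroblast gene was at 0 in all libraries of a group, and among the macrophage genes the Kupffer cell gene Clec4f was at 0 in WT kidneys; their part in the levels was not tested.

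Hspa5 (ENSMUSG00000026864), the HSP70 chaperone BiP, had 528, 377, 393, 658 and 302 CPM in KO kidneys, against 449, 394, 450, 772 and 767 CPM in WT kidneys. The groups overlapped widely, mice 23 and 24 being the high WT kidneys and mouse 18 the lowest KO kidney, and the log2 fold change was -0.33 (SE 0.25, adjusted p = 0.999). Hsp90b1, the HSP90 paralog GRP94, had 343, 303, 319, 381 and 217 CPM in KO kidneys, against 360.5, 333, 355, 426 and 439 CPM in WT kidneys (-0.29, SE 0.13). The KO kidneys of mice 14, 15 and 18 lay below the WT range and those of mice 13 and 16 within it. Dnajb11, a J-domain partner of BiP, had 102, 93.0, 96.6, 112 and 80.2 CPM in KO kidneys, against 108, 102, 111, 138 and 117 CPM in WT kidneys (-0.25, SE 0.10). Sdf2l1, which works beside Dnajb11, had 9.34, 11.5, 10.7, 16.3 and 9.75 CPM in KO kidneys, against 12.9, 13.96, 12.8, 23.7 and 15.6 CPM in WT kidneys. This was the lowest of the 34 fold changes (-0.46, SE 0.19, adjusted p = 0.999; -0.27 without mouse 23), and mouse 16 was the KO kidney that reached into the WT range.

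The other chaperone partners were lower by smaller amounts or with wider errors. Hyou1 and Sil1, nucleotide exchange factors of BiP, had log2 fold changes of -0.23 (SE 0.22) and -0.15 (SE 0.07). Sil1 spanned 44.3 to 51.4 CPM in KO kidneys and 52.3 to 56.4 CPM in WT kidneys, so its groups did not overlap, although its adjusted p was 0.999. The J-domain proteins Dnajb9 and Dnajc3 had -0.07 (SE 0.14) and -0.16 (SE 0.10). Manf and Creld2, small ER proteins that are also secreted under stress, had -0.32 (SE 0.31) and -0.17 (SE 0.22).

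The calcium-binding and lectin chaperones, which include those that hold glycoproteins during folding, were lower in KO kidneys in all 3 cases. Calr, calreticulin, had 649, 658, 662, 721 and 519 CPM in KO kidneys, against 712, 732, 773, 806 and 747 CPM in WT kidneys. Only the KO kidney of mouse 16 reached the WT range, and the log2 fold change was -0.23 (SE 0.09, adjusted p = 0.999). Its membrane-bound relative Canx (calnexin) and the calcium-binding protein Calu (calumenin) had -0.12 (SE 0.09) and -0.07 (SE 0.08).

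Of the 8 isomerases and oxidases, which make and rearrange disulfide bonds or turn prolines, 7 were lower in KO kidneys. Pdia6 had the smallest p of all members (unadjusted p = 0.0133 in edgeR, adjusted p = 0.999). It was 167, 184, 191, 191 and 177 CPM in KO kidneys, against 207, 212, 198, 222 and 207 CPM in WT kidneys, and the groups did not overlap (-0.20, SE 0.07). Ppib, cyclophilin B, had -0.18 (SE 0.08), and its exons share 25.0% of their bases with the antisense gene Snx22, whose reads cannot be told apart without the strand. The same holds for 10.3% of the exon bases of Hsp90b1 (1810014B01Rik) and 8.51% of those of Calu (Opn1sw), and these other genes reached at most 7.77, 14.4 and 0.134 CPM in any library. Some antisense genes with smaller overlaps reached higher levels. Txndc5 shares 4.99% of its exon bases with Bmp6 (at most 88.1 CPM) and 6.92% with Gm31834 (at most 0.989 CPM). Manf shares 4.14% with Dcaf1 (at most 36.6 CPM). Pdia3, Pdia4 and P4hb, other disulfide isomerases, had -0.20 (SE 0.12), -0.25 (SE 0.14) and -0.11 (SE 0.07). Txndc5 had -0.04 (SE 0.08), Ero1lb -0.07 (SE 0.10) and Ero1l, the oxidase that recharges the isomerases and the only one of the group above 0, 0.02 (SE 0.12). Txndc5 (chr13:38500079-38528824) and Ero1lb (chr13:12565874-12611396, both GRCm38) lie on the chromosome of H2afy (chr13:56073619-56136361).

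The sensors, Xbp1 and the ERAD genes were mixed in kidney. Xbp1 was 134, 192, 138, 174 and 160 CPM in KO kidneys, against 177, 117, 121, 222 and 238 CPM in WT kidneys (-0.13, SE 0.20). Atf6 was 65.5, 42.8, 46.5, 50.7 and 35.2 CPM in KO kidneys, against 45.9, 49.9, 48.9, 50.8 and 54.0 CPM in WT kidneys (-0.05, SE 0.13). Ern1, the gene of IRE1, was 36.98, 26.1, 29.4, 34.5 and 29.0 CPM in KO kidneys, against 26.0, 28.2, 29.0, 24.5 and 30.7 CPM in WT kidneys (0.17, SE 0.10). All 3 overlapped between the groups, and the KO spread of Atf6 contained every WT kidney.

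Herpud1, an ERAD adaptor, was 397, 229, 293, 454 and 319 CPM in KO kidneys, against 283, 209, 287, 405 and 333 CPM in WT kidneys (0.16, SE 0.19). Syvn1, the ubiquitin ligase HRD1, was 69.2, 71.9, 81.9, 90.1 and 112 CPM in KO kidneys, against 62.3, 60.6, 63.1, 87.5 and 99.9 CPM in WT kidneys (0.19, SE 0.16). Neither separated the groups. Derl1, a derlin of the retrotranslocation channel, had 0.05 (SE 0.08), and its relatives Derl2 and Derl3 had -0.07 (SE 0.08) and -0.31 (SE 0.26). Edem1 and Edem2, which mark misfolded glycoproteins for removal, had -0.15 (SE 0.09) and -0.04 (SE 0.09), and Sel1l, the partner of HRD1, had -0.09 (SE 0.14). The translocon subunits Sec61a1 and Sec61b, through which new proteins enter the ER, had -0.07 (SE 0.09) and -0.14 (SE 0.10).

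Leaving out any 1 mouse kept 28 to 30 of the 34 members lower in KO kidneys. Mouse 18 was the lowest KO kidney in 17 members, and without it the median log2 fold change was -0.09. Mice 24 and 23 were the highest WT kidneys in 12 and 11 members, and the median was -0.11 without mouse 24 and -0.10 without mouse 23. How often these kidneys were lowest or highest over all genes was not worked out. A list of 9 immediate early and heat shock genes held Fos, Fosb, Jun, Junb, Egr1, Ier2, Atf3, Hspa1a and Hspa1b. Its sum was 726 CPM in the kidney of mouse 24, against 118 to 139 CPM in the other WT kidneys and 138 to 264 CPM in KO kidneys. The part of these genes in the levels was not tested. In whole tissue, fewer cells of a type and less RNA per cell cannot be told apart.

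**Figure D1:**
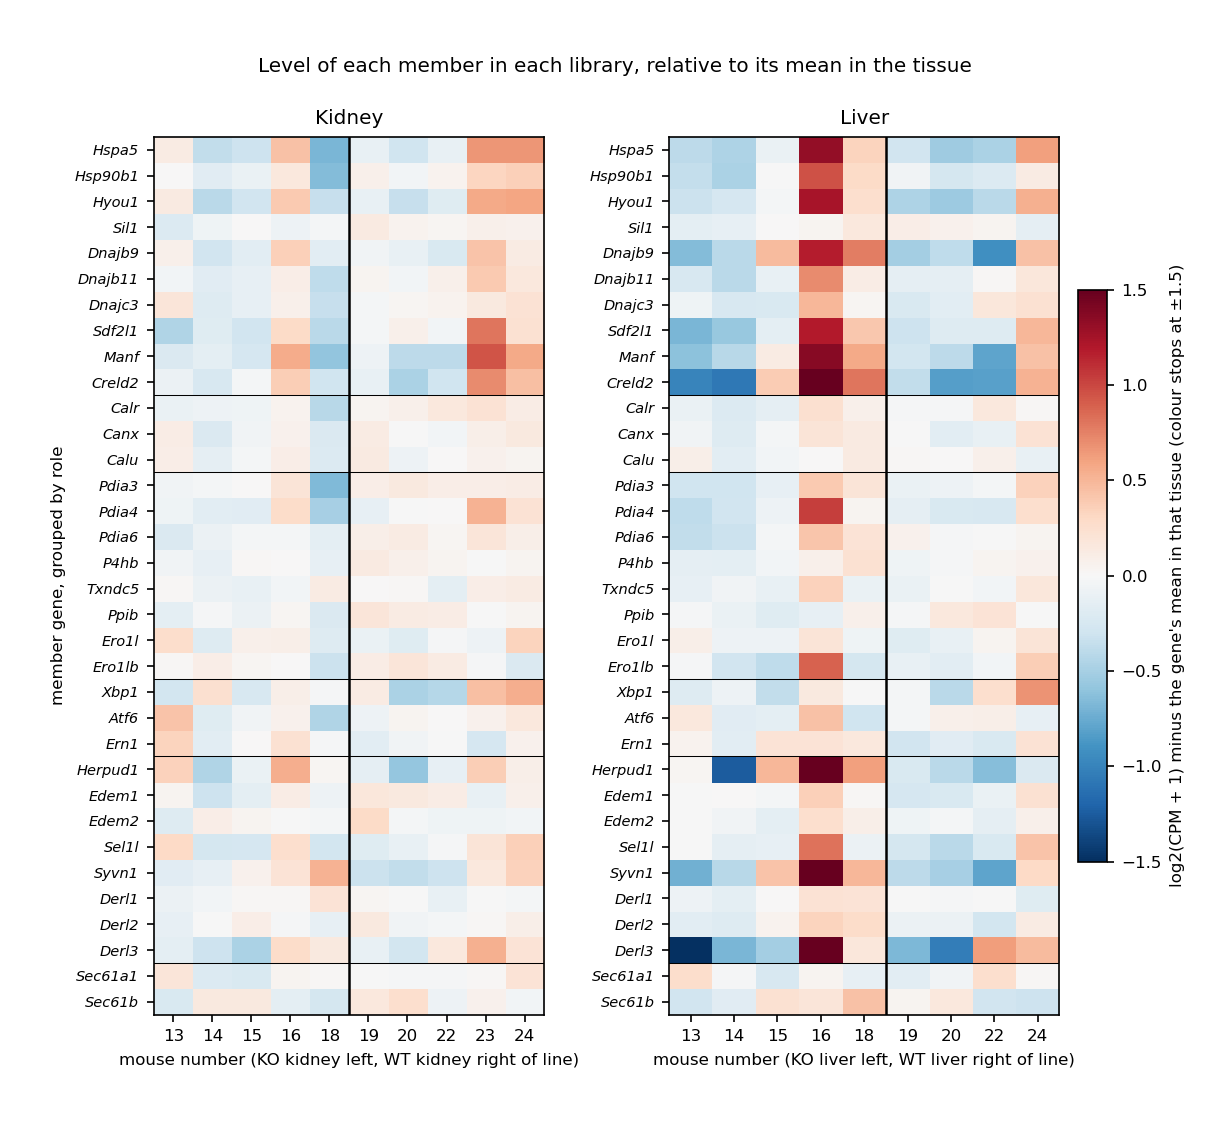
Each row is a member gene and each column a library, in kidney and liver, with KO left and WT right of the line. Colour gives log2(CPM + 1) minus the mean of the gene over the libraries of that tissue, red above and blue below, stopping at 1.5 either way. The KO liver of mouse 16 is red in most rows, 27 of the 34 members being highest there among KO livers. The share over all genes was not worked out.

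In liver the members went the other way on average, and again none passed the test. Of the 34 members 25 were higher and 9 lower in KO livers, with a median log2 fold change of 0.09, against 0.00 over the 14591 genes tested, of which 48.7% were lower and 51.3% higher. With edgeR 0 members passed, as did 0% of all genes, and the smallest adjusted p of a member was 0.9998. No member had an unadjusted p under 0.05, which 4.17% of all genes did, and DESeq2 called 0 members. Without mouse 16 the balance turned, and 21 of the 34 members were lower in KO livers, with a median of -0.02, and without mouse 14 or mouse 15 the count was 5. Without mouse 24 it was 8, and without mice 16 and 24 it was 15, with a median of 0.04. Among the cell markers, 7 of 8 macrophage genes (median -0.18) and 7 of 9 fibroblast genes (median -0.11) were lower in KO livers, with 0 called. The macrophage sum was 231 to 330 CPM in KO livers and 243 to 374 CPM in WT livers, the fibroblast sum was 171 to 248.9 CPM in KO livers and 197 to 248.8 CPM in WT livers, and no gene of either list was at 0 in all libraries of a group. Their part in the levels was not tested.

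All 8 ERAD genes were higher on average in KO livers, with a median of 0.19, and without mouse 16 they were 6 of 8 with a median of 0.06. Herpud1 had the smallest p among the members in liver (log2 fold change 0.93, SE 0.47, unadjusted p = 0.0784 and adjusted p = 0.9998 in edgeR). It was 525, 216, 727, 1568 and 790 CPM in KO livers, against 441, 391, 331 and 444 CPM in WT livers. The KO livers of mice 13, 15, 16 and 18 were above every WT liver and that of mouse 14 was below them all, and without mouse 16 the value was 0.49.

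Syvn1 was 124, 154, 277, 631 and 291 CPM in KO livers, against 157, 145, 119 and 253 CPM in WT livers (0.81, SE 0.47, and 0.33 without mouse 16). Derl3, the member with the largest fold change and named after its values were seen, was 1.56, 3.45, 4.04, 61.4 and 7.06 CPM in KO livers, against 3.51, 2.51, 10.1 and 8.98 CPM in WT livers. Its log2 fold change of 1.31 had an SE of 1.15 and was -0.64 without mouse 16, and the other KO livers lay within or below the WT range. Edem1, Edem2 and Sel1l had 0.16 (SE 0.13), 0.07 (SE 0.10) and 0.22 (SE 0.23), and Derl1 and Derl2 had 0.10 (SE 0.10) and 0.15 (SE 0.13). Without mouse 16 these 5 values were 0.08, 0.0047, -0.010, 0.05 and 0.08.

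Of the 10 chaperones and partners 9 were higher on average in KO livers, with a median of 0.33, and without mouse 16 they were 4 of 10 with a median of -0.02. Hspa5 was 738, 701, 903, 2424 and 1225 CPM in KO livers, against 795, 669, 696 and 1486 CPM in WT livers (0.39, SE 0.41). Mouse 16 was the highest KO liver and mouse 24 the highest WT liver, and without mouse 16 the fold change was -0.03. Dnajb9, which tunes IRE1 through BiP, was 62.8, 74.7, 138, 225 and 169 CPM in KO livers, against 69.2, 75.6, 52.0 and 135 CPM in WT livers (0.69, SE 0.42). Creld2, also named after its values were seen, was 38.0, 35.7, 99.8, 397 and 134 CPM in KO livers, against 59.0, 42.8, 43.0 and 110 CPM in WT livers (1.15, SE 0.77). The KO livers of mice 13 and 14 lay among the low WT livers for Dnajb9 and below every WT liver for Creld2. In both genes those of mice 15, 16 and 18 lay above at least 3 of the 4 WT livers. Without mouse 16 their values were 0.42 and 0.27.

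Hsp90b1 was 563, 520, 722.5, 1400 and 881 CPM in KO livers, against 697, 601, 627 and 790 CPM in WT livers (0.27, SE 0.26). Hyou1 and Manf had 0.46 (SE 0.37) and 0.57 (SE 0.43), Sdf2l1 had 0.23 (SE 0.40), Dnajb11 had 0.08 (SE 0.20) and Dnajc3 had 0.0053 (SE 0.16). Without mouse 16 the values were -0.02 for Hsp90b1, 0.08 for Hyou1, 0.17 for Manf, -0.18 for Sdf2l1, -0.14 for Dnajb11 and -0.14 for Dnajc3. Sil1, whose groups did not overlap in kidney, had -0.03 (SE 0.09) and spanned 65.2 to 80.7 CPM in KO livers and 65.7 to 77.7 CPM in WT livers.

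The lectin chaperones, isomerases, sensors, Xbp1 and translocon subunits lay on both sides of 0 in liver. Calr, Canx and Calu had -0.05 (SE 0.11), 0.02 (SE 0.11) and 0.01 (SE 0.09). Pdia3 had -0.05 (SE 0.16), Pdia4 0.24 (SE 0.28), Pdia6 -0.01 (SE 0.15), P4hb -0.0048 (SE 0.10), Txndc5 -0.0020 (SE 0.12), Ero1l 0.03 (SE 0.12) and Ero1lb 0.04 (SE 0.26). Ppib was 89.6, 84.7, 79.9, 83.7 and 96.3 CPM in KO livers, against 90.3, 102, 105 and 90.9 CPM in WT livers (-0.16, SE 0.09, adjusted p = 0.9998). It had the second smallest p in liver and the liver of mouse 16 was not among the high ones for it.

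Xbp1 was 223, 243, 197, 282 and 254 CPM in KO livers, against 250, 193, 304 and 408 CPM in WT livers (-0.27, SE 0.19). The liver of mouse 24 was the highest of all 9. Xbp1 had the lowest fold change of the members in liver, and it was -0.06 without mouse 24. Atf6 was 54.4, 43.1, 43.9, 66.4 and 39.4 CPM in KO livers, against 47.7, 51.3, 51.7 and 44.7 CPM in WT livers (0.02, SE 0.14). Ern1 was 67.7, 58.2, 75.6, 75.4 and 73.0 CPM in KO livers, against 53.4, 57.6, 55.6 and 75.7 CPM in WT livers (0.21, SE 0.12). All KO livers were above the WT livers of mice 19, 20 and 22, and none was above that of mouse 24. Sec61a1 had -0.03 (SE 0.12) and Sec61b 0.19 (SE 0.16).

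**Figure D2:**
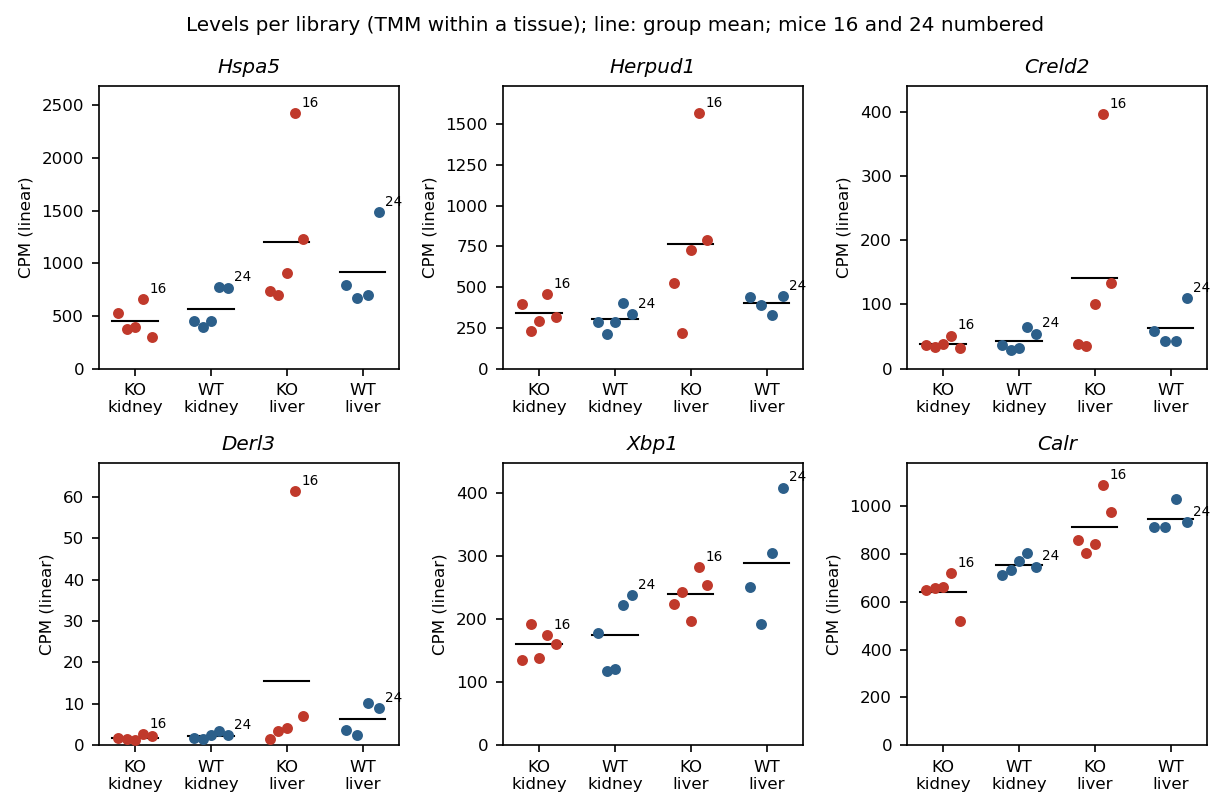
The level of 6 members in every library, in CPM on a linear axis that starts at 0, for KO kidney, WT kidney, KO liver and WT liver, with a line at the group mean. Scaling was within a tissue, so heights are compared within kidney or within liver. The liver of mouse 16 stands far above the other KO livers in Hspa5 (2424 CPM), Herpud1 (1568 CPM), Creld2 (397 CPM) and Derl3 (61.4 CPM), and mouse 24 is the highest WT liver in Hspa5, Creld2 and Xbp1.

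The liver of KO mouse 16 was the highest KO liver in 27 of 34 members and the lowest in 0. The liver of WT mouse 24 was the highest WT liver in 24 and the lowest in 5. Such counts over all genes were not worked out, and the members vary together. They therefore do not show that these livers stood apart for these genes in particular. The sum of 11 pancreatic acinar genes was 57.2 to 78.2 CPM in KO livers, highest in mouse 16, and 63.1 to 72.5 CPM in WT livers. Most of it was Cela1, and 7 of the 11 genes stayed under 1 CPM in every KO liver and 6 in every WT liver. The sum of 12 plasma cell and B cell genes was 242 to 322 CPM in KO livers, highest in mouse 18, and 265 to 326 CPM in WT livers. The sum of the 9 immediate early and heat shock genes was 391, 217, 149, 272 and 120 CPM in KO livers, against 221, 221, 217 and 358 CPM in WT livers. It was highest in mice 13 and 24, and its part in the levels was not tested, nor was that of the diet.

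**Figure D3:**
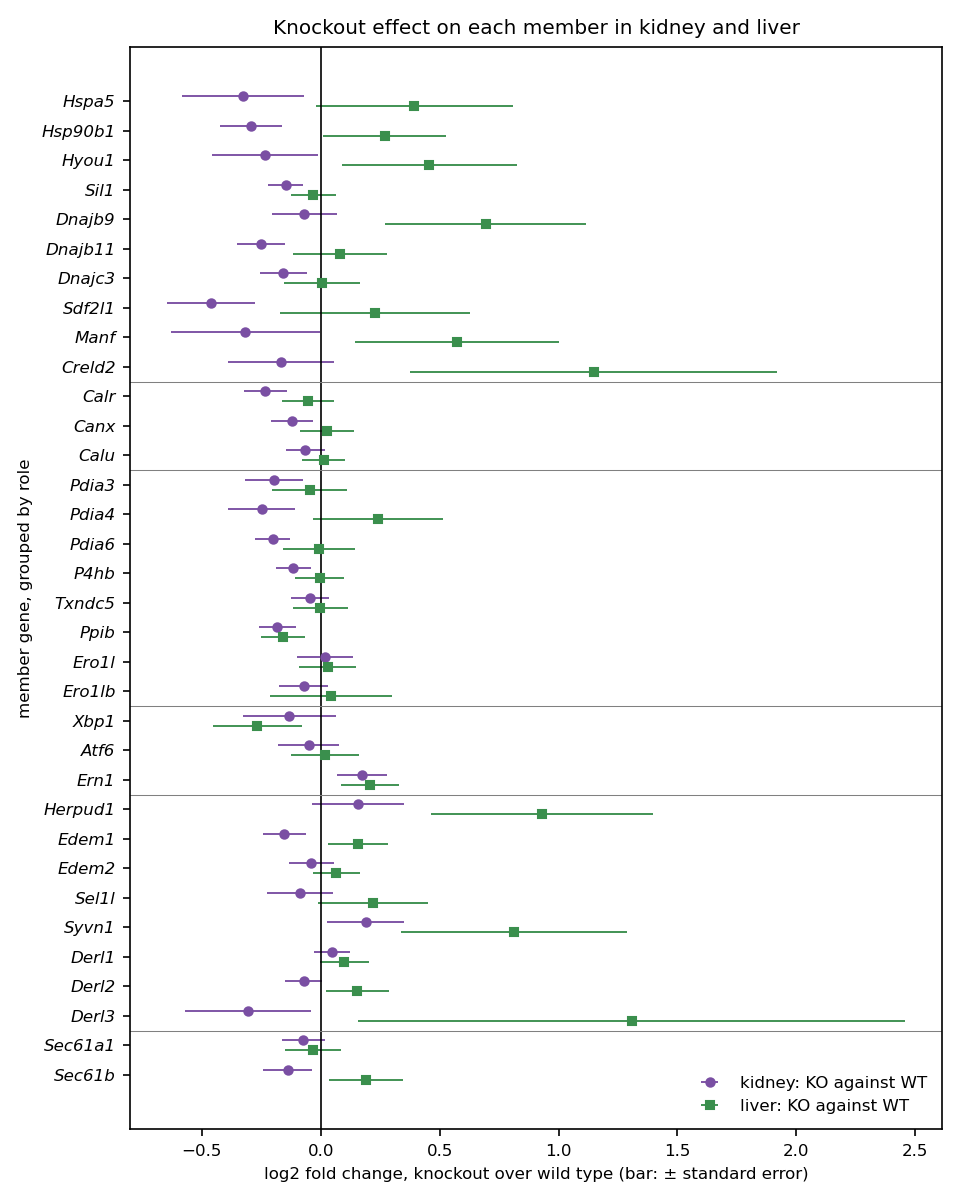
The log2 fold change of each member, KO over WT, with its standard error, in kidney (circles) and liver (squares), in groups by role. Kidney values lie mostly just below 0 with short bars, and 29 of 34 are negative, while liver values are spread up to 1.31 with long bars for Derl3, Creld2, Herpud1 and Syvn1.

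Whether the knockout acted differently in the organs was asked with an interaction term over all 19 libraries. The effect in liver minus that in kidney was above 0 for 33 of 34 members, against 49.8% of the 18549 genes tested, with a median of 0.19. By edgeR 0 members passed, as did 0% of all genes, and the smallest adjusted p was 0.9999; 0 members had an unadjusted p under 0.05, where 4.12% of all genes did, and DESeq2 called 0 members. The largest differences were those of Derl3 (1.61, SE 1.21) and Creld2 (1.32, SE 0.79), which were -0.16 and 0.58 without mouse 16. Without mouse 16 the count above 0 was 28 and the median 0.13, and without mouse 18 they were 28 and 0.12.

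Edem1 had the smallest p of the interaction (0.31, SE 0.15, unadjusted p = 0.0504, adjusted p = 0.9999 in edgeR). It was 172, 174, 169, 222 and 174 CPM in KO livers, against 145, 147, 161 and 203 CPM in WT livers. In kidney it was 99.6, 77.7, 87.7, 105 and 91.9 CPM in KO mice, against 109, 107, 105, 89.9 and 102 CPM in WT mice. KO livers lay above 3 of 4 WT livers, while the KO kidneys of mice 14 and 15 lay below the WT range and the other 3 within it. Hsp90b1 (0.56, SE 0.30) and Dnajb9 (0.77, SE 0.45) followed. Dnajb9 was 61.8, 47.6, 52.2, 75.0 and 52.3 CPM in KO kidneys, against 56.2, 54.0, 49.8, 78.9 and 63.9 CPM in WT kidneys, and the groups overlapped.

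Sec61b, the fourth by p (0.33, SE 0.20), was 86.1, 93.3, 123, 119 and 143 CPM in KO livers, against 108, 117, 86.1 and 84.7 CPM in WT livers. In kidney it was 42.9, 55.8, 55.8, 45.6 and 41.9 CPM in KO mice, against 56.4, 60.1, 47.9, 52.8 and 49.1 CPM in WT mice. Both tissues overlapped between the groups. Xbp1 was the only member with a difference below 0 (-0.13, SE 0.29).

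The spread between mice of 1 group was itself large for part of these genes. In liver the median SD of log2(CPM + 1) within groups was 0.27 over the members, against 0.18 over the 7468 genes above 10 CPM, and of the 33 members above 10 CPM, all but Derl3, 13 lay in the most variable 10% of those genes. The most variable were Derl3 with an SD of 1.45, Creld2 with 1.15, Herpud1 with 0.80 and Syvn1 with 0.75, and Derl3 differed 39.5-fold between its highest and lowest liver, or 6.48-fold without mouse 16. The least variable were Calu with 0.10, Ppib with 0.11 and Sil1 with 0.12. In kidney the median was 0.17, against 0.16 over 9694 genes, and 9 of the 33 members above 10 CPM lay in the most variable 10%, led by Manf with 0.52 and Hspa5 with 0.45. The 12 members with ERSE or ERSE-II had a median SD of 0.44 in liver, against 0.20 for the 16 whose promoter held neither. In kidney these medians were 0.21 and 0.17. In liver the SDs ran over 0.15 to 1.45 with an element and over 0.10 to 0.69 without, so the lists overlapped. Dnajb9 (0.69) and Sdf2l1 (0.63) were among the variable members without a match. The difference between these lists was not tested. The liver SDs include mouse 16. Without it the ratio of highest to lowest liver was 3.74 for Creld2 (11.1 with it), 3.66 for Herpud1 (7.25) and 2.46 for Syvn1 (5.32). For Canx, which also has ERSE, it stayed at 1.34.

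Many members followed Hspa5 across mice, but none passed a test adjusted over all genes. Over the 9 livers the correlation of log2(CPM + 1) with Hspa5 had a median Pearson r of 0.83 over the other 33 members, against -0.02 over the 14590 other genes tested. At an unadjusted p under 0.05 in an exact two-sided permutation test there were 23 of 33 members, where 9.2% of all genes reached it, and 15 did so by Spearman's rho as well, where 4.98% of all genes did. After adjustment over all genes 0 members passed, as did 0% of genes. Hyou1 was closest (r = 0.98, permutation p = 0.00016, adjusted p = 0.167; rho = 0.88, permutation p = 0.00308, adjusted p = 0.414). Without mice 16 and 24, which lay farthest from the median of Hspa5, Hyou1 kept r = 0.91, and the median over members was 0.61. In that setting Txndc5, Ero1lb and Atf6 had r = -0.54, -0.48 and -0.76, so for Txndc5 (r = 0.83 over all livers) and Ero1lb (r = 0.81) the relation rested on those 2 livers.

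Over the 10 kidneys the median r was 0.62, or 0.60 without mice 23 and 24, against -0.00066 over 17268 genes. At an unadjusted permutation p under 0.05 there were 16 of 33 members, where 13.1% of all genes reached it, and 15 did so by rho as well, where 10.3% of all genes did. After adjustment over all genes 0 members passed, as did 0% of genes. Hyou1 was again closest (r = 0.97, permutation p = 3e-05, adjusted p = 0.0648; rho = 0.95, permutation p = 0.00017, adjusted p = 0.221), followed by Manf, Pdia4 and Hsp90b1 with r = 0.92, 0.92 and 0.90. Herpud1 (r = 0.66), Xbp1 (r = 0.58), Syvn1 (r = 0.20) and Ern1 (r = 0.16) had unadjusted permutation p of 0.0415, 0.0837, 0.571 and 0.651 in kidney. Libraries of both genotypes enter these values, and they share the scaling of the library.

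Where a kidney and a liver carried the same mouse number, the members were compared between organs as deviations from the group mean over 9 mice. The labels do not say in words that such a pair came from 1 animal. Pearson's r was above 0 for 29 of 34 members, with a median of 0.51, against 72.0% and a median of 0.28 over 11453 genes compared. The 9 deviations were permuted across both genotypes after centring within each, so the permutation p is approximate. It was under 0.05 unadjusted for 9 of 34 members, where 15.7% of genes reached that. After adjustment over all genes 0 of 34 passed, where 0.0175% of genes did. The smallest p was that of Derl3 (r = 0.76, permutation p = 0.00863, adjusted p = 0.194, and rho = 0.72, permutation p = 0.0369). Hspa5 had r = 0.65 (permutation p = 0.054), and without mice 16 and 24, the mice farthest from the median, it had r = -0.64. Over the members the median without these mice was 0.02, and 19 of 34 were above 0. The relation of Hspa5 rested on these mice, as did those of Hyou1 (r = 0.76, and -0.42 without them) and Sdf2l1 (0.76 and -0.08). Among the other members with an unadjusted p under 0.05, r without them was 0.69 for Syvn1 (0.67 over all 9 mice), 0.66 for Ero1l (0.78), 0.59 for Sel1l (0.77), 0.59 for Derl3 (0.76), 0.51 for Herpud1 (0.70), 0.39 for Xbp1 (0.71) and 0.0093 for Creld2 (0.68).

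**Figure D4:**
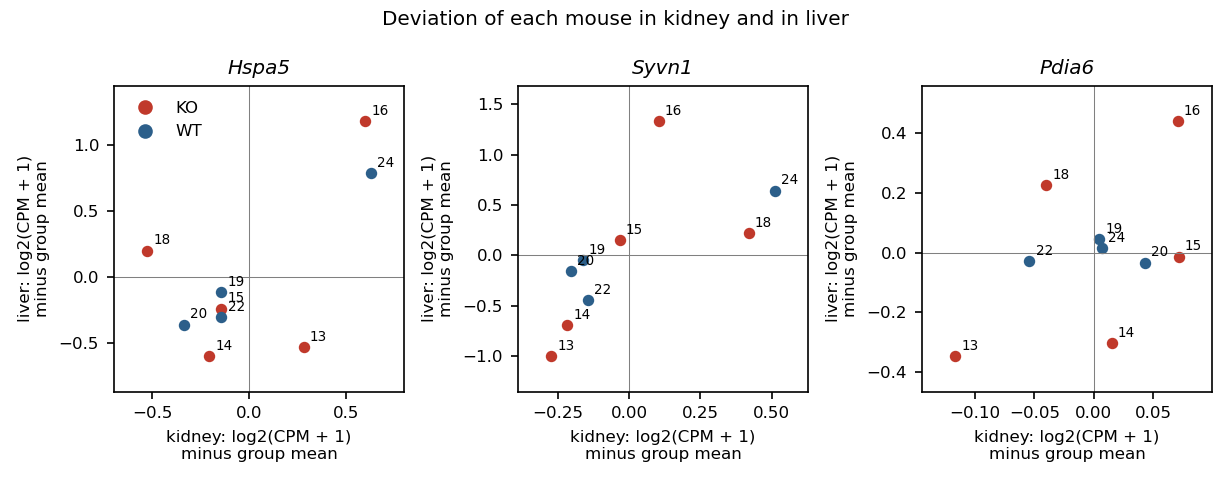
Each point is 1 mouse, red for KO and blue for WT, with its number. The axes give log2(CPM + 1) minus the group mean in kidney and in liver for Hspa5, Syvn1 and Pdia6. Mice 16 and 24 lie at the upper right for Hspa5, whose r of 0.65 became -0.64 without them.

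Set against liver, the kidney carried less of almost the whole set. In WT mice 33 of 34 members were lower in kidney and 1 higher, and all 34 passed the edgeR test, where 71.9% of all genes did, 31.7% being called lower and 40.2% higher. The median log2 fold change was -1.504, against 0.17 over all genes, which puts the members 1.67 below the shift of all genes. In KO mice the counts were again 33 lower and 1 higher of 34, where 74.7% of all genes passed, 32.8% being called lower and 41.9% higher, with a median of -1.91 against 0.17. The size of this gap depended on the scaling. With library totals in place of TMM the median of all genes moved to 1.05 in WT mice and 1.09 in KO mice, and that of the members to -0.62 and -0.991. In that setting 21 members passed in WT mice and 31 in KO mice, and the share of all genes passing is not given here. Canx and Calu turned to higher in kidney in both genotypes. With Ero1l, also higher in kidney, they were among the members that passed, so not all of these calls were lower.

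Sdf2l1 showed the largest gap in WT mice (log2 fold change -2.88, SE 0.34, adjusted p = 6.41e-07 in edgeR), followed by Derl3 (-2.37, SE 0.87), Ero1lb (-2.29, SE 0.20), Syvn1 (-2.07, SE 0.37) and Derl2 (-2.04, SE 0.11). All 5 stayed below 0 with library totals, at -1.997, -1.49, -1.41, -1.19 and -1.15, and only Derl3 then missed the threshold (adjusted p = 0.117 in edgeR). Among the members lower in kidney the smallest gap was that of Canx (-0.41, SE 0.10, adjusted p = 0.00118 in edgeR; 0.47 with library totals). Ero1l was the member higher in kidney, at 0.29 (SE 0.13, adjusted p = 0.0442 in edgeR) in WT mice and 0.27 (SE 0.12, adjusted p = 0.0408) in KO mice. With 1 mouse left out the number called ranged over 31 to 34 in WT mice, lowest without mouse 22 or mouse 24. In KO mice it ranged over 33 to 34. The calls lost in WT mice were those of Ero1l without mouse 15, 19, 20, 22 or 24, of Creld2 without mouse 19, 20, 22 or 24 and of Derl3 without mouse 22 or 24, and in KO mice that of Ero1l without mouse 13, 15, 16, 19 or 22. The call of Ero1l in WT mice was also lost with a filter of 1 CPM (adjusted p = 0.0509 in edgeR) and without mice 16 and 24 (adjusted p = 0.0744). It is one of a pair of oxidases with Ero1lb, which was lower in kidney in both genotypes. Ern1 (-2.03, SE 0.12) and Xbp1 (-1.62, SE 0.21) were lower in the kidneys of WT mice by more than Atf6 (-0.87, SE 0.15), which reached 0.01 with library totals.

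Per kilobase of merged exons and on 1 scale for all libraries, P4hb was the most abundant member, at 187 ± 10.3 CPM per kb in KO kidneys, 203 ± 6.52 in WT kidneys, 716 ± 80.1 in KO livers and 720 ± 22.8 in WT livers (SD, n = 5, 5, 5 and 4). Calr followed in kidney, at 165 ± 20.7 CPM per kb in KO mice and 195 ± 10.4 in WT mice. The ranges of mean ± SD of P4hb and Calr overlapped in the kidneys of both genotypes. Hspa5 had 79.2 ± 25.1 CPM per kb in KO kidneys, 99.8 ± 33.1 in WT kidneys, 393 ± 232 in KO livers and 300 ± 125 in WT livers. Derl3 was the lowest member in kidney, at 0.674 ± 0.222 CPM per kb in KO kidneys, 0.841 ± 0.267 in WT kidneys, 10.7 ± 17.8 in KO livers and 4.36 ± 2.62 in WT livers. In liver Ero1l was the lowest, at 3.18 ± 0.278 CPM per kb in KO mice and 3.13 ± 0.367 in WT mice, and the KO mean of Derl3 took in mouse 16 (61.4 CPM, against a group median of 4.04 CPM, neither divided by length).

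**Figure D5:**
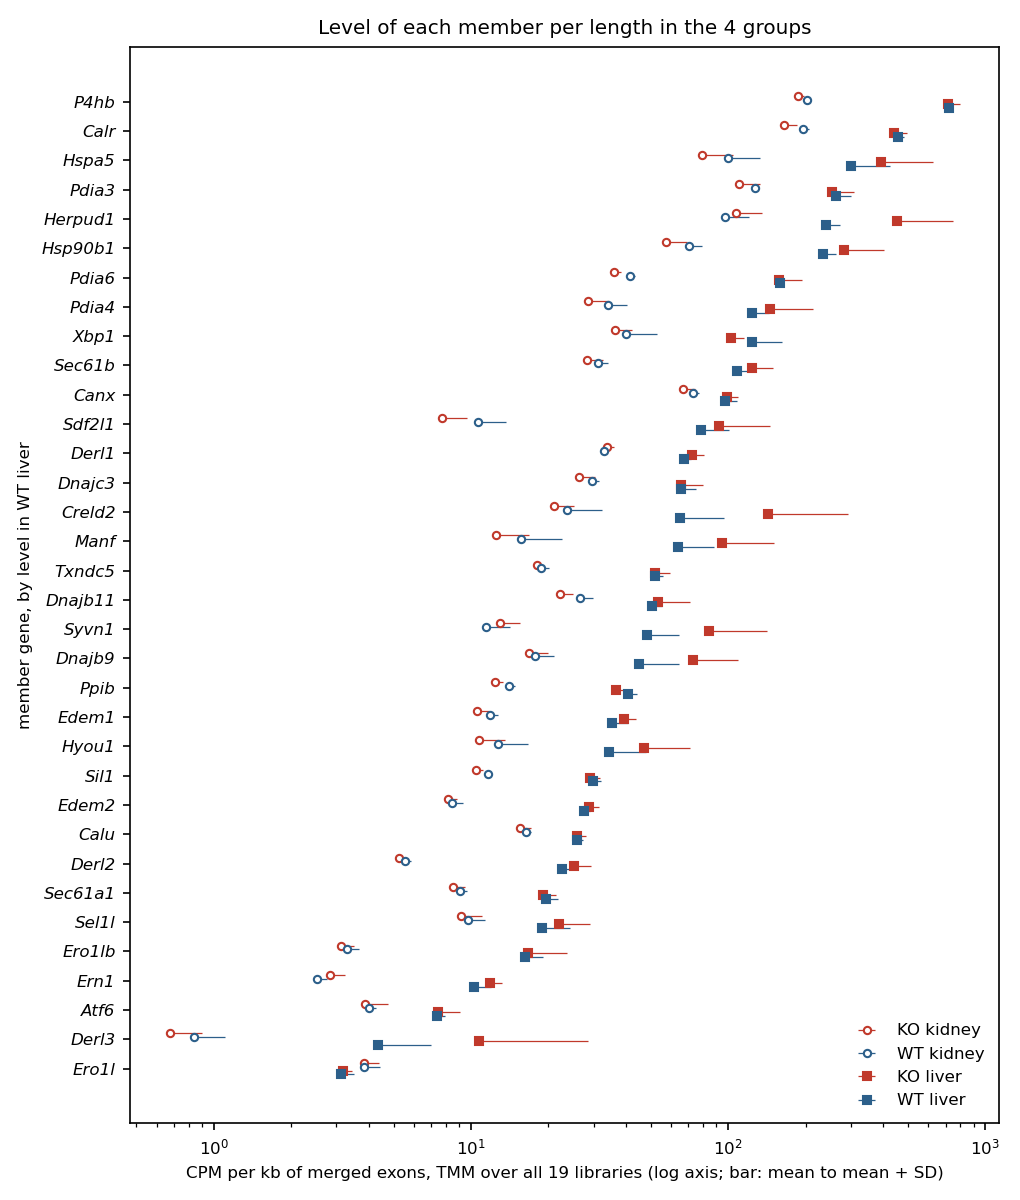
The level of each member in the 4 groups, in CPM per kb of merged exons with 1 TMM scaling over 19 libraries, on a log axis, ordered by WT liver. Open circles are kidneys and filled squares livers, red for KO and blue for WT, and bars run from the mean to 1 SD above it. Kidney points lie left of liver points for every member but Ero1l, and with library totals Canx and Calu turn to higher in kidney and Atf6 reaches 0.01 in WT mice.

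Other genes of the same machinery were listed apart from the members. In kidney 0 genes of 4 related lists passed by edgeR. The PERK arm and other stress regulators were lower in KO kidneys in 9 of 17 tested, with Creb3l1 (-0.19, SE 0.15) and Wfs1 (-0.12, SE 0.10) having the smallest p. Other folding enzymes were lower in 31 of 40, led by the isomerases Ppic (-0.24, SE 0.10) and Fkbp11 (-0.29, SE 0.16). Other ERAD genes were lower in 16 of 27, led by Sel1l3 (-0.20, SE 0.10) and Ngly1 (-0.16, SE 0.10). Genes of the translocon, signal peptidase and oligosaccharyltransferase were lower in 28 of 33, led by Ostc (-0.24, SE 0.11) and Magt1 (-0.15, SE 0.08). The medians of the 4 lists were -0.02, -0.05, -0.02 and -0.08, beside 0.01 over all genes.

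In liver 0 genes of these lists passed by edgeR either. The PERK arm list was lower in 6 of 17, with Nupr1 (0.40, SE 0.24) and Eif2ak3, the gene of PERK (0.34, SE 0.21), having the smallest p. The folding enzymes were lower in 12 of 39, led by Tmx1 (0.20, SE 0.11) and Dnajc25 (0.15, SE 0.09). ERAD genes were lower in 11 of 27, led by Ube2g2 (0.36, SE 0.13) and Man1b1 (0.15, SE 0.09), and the translocon list was lower in 9 of 33, led by Tusc3 (0.31, SE 0.17) and Tmem258 (0.22, SE 0.16). The medians of the 4 lists in liver were 0.03, 0.04, 0.02 and 0.06, beside 0.00 over all genes, and without mouse 16 they were -0.04, 0.02, -0.0021 and 0.0036. The interaction was above 0 in 12 of 17, 32 of 40, 18 of 27 and 33 of 33 genes of these lists, against 49.8% of all genes, with 0 passing, and without mouse 16 in 10 of 17, 27 of 40, 17 of 27 and 29 of 33, against 51.1%. Its smallest p belonged to Nupr1 (0.49, SE 0.27) and Eif2ak3 (0.42, SE 0.26), to Fkbp7 (0.48, SE 0.25) and Dnajc25 (0.26, SE 0.15), to Vimp (0.37, SE 0.17) and Ube2g2 (0.33, SE 0.18), and to Tusc3 (0.34, SE 0.19) and Tmem258 (0.39, SE 0.22).

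Between the tissues of WT mice 71.9% of all genes were called, 31.7% lower in kidney and 40.2% higher, and the related lists are read against that. In kidney 8 of 17 PERK arm genes were called lower and 6 higher, 20 of 40 folding enzymes lower and 11 higher, 19 of 27 ERAD genes lower and 3 higher, and 27 of 33 translocon genes lower and 3 higher. Their medians were -0.24, -0.27, -0.43 and -0.86, beside -1.504 for the members and 0.17 for all genes. The difference between lists was not tested. These calls and medians used TMM. With library totals the medians of all genes and of the members moved up, and the lists are not given in that setting. Whether their medians would stay below 0 there is thus not shown.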

How the data were processed

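Gene counts were used as the authors deposited them, raw and unscaled, for 26506 genes in 19 poly(A) RNA libraries. The submitters' processing notes name Trim Galore, STAR, featureCounts, DESeq2 and the build GRCm38 without versions, and whether reads were counted by strand is not given in the sources used here. Identifiers were matched without version to GENCODE mouse release 21 (26417 matched, 89 did not). The members and the related gene lists were chosen with earlier results of these data known, and of 203 listed genes 201 were matched; Slc22a12 and Amy2a5 were not analysed here.

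Groups follow the genotype and tissue in the labels. The number in a title was taken as that of the mouse, and since the labels do not otherwise tie libraries to separate animals, the p-values reflect only how much the libraries of a group vary, which may be technical. Each tissue was fitted alone with edgeR 4.0.16 (R 4.3.3; robust quasi-likelihood test, two-sided, TMM, filterByExpr minimum count 10, Benjamini-Hochberg threshold 0.05 over all genes), and the interaction and the tissue contrasts were fitted over all 19 libraries. Every member passed the filter. Standard errors were derived from the F statistic. The fits were tested on simulated data with known changes.

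Alternatives were DESeq2 1.42.0, voom with sample weights (limma 3.58.1), DESeq2 size factors, library totals, no filter, a filter of 1 CPM, 1 fit of all libraries, each mouse left out in turn, mice 16 and 24 left out, and the mouse number as a block. Correlations used log2(CPM + 1) with 100000 random pairings in kidney and all 362880 pairings of 9 in liver and between organs (scipy 1.17.1), adjusted over all genes tested. Correlations with library totals were added after seeing the data. The genes given library by library are Hspa5, Xbp1, Atf6 and Ern1 and the 4 members with the smallest p in each knockout comparison, and other members so given were chosen after their values were seen. From the tissue contrast the 5 largest differences are named, and from each related list the 2 genes with the smallest p.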

Additional observations from a re-analysis of the deposited data

Results flagged for a closer look

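Dixon's ratio of gap to range was taken on linear CPM in each pair of member and group. Its 95% critical value lets about 1 in 20 groups pass by chance only for independent, normally distributed values. Members that vary together in the same mice are not independent, and the share over all genes was not worked out, so no excess is claimed. In 18 of 136 pairs 1 library stood apart from the rest of its group by more than that value. Of these, 8 were the KO liver of mouse 16 as the highest: Creld2 (397 CPM), Derl3 (61.4 CPM), Edem1 (222 CPM), Ero1lb (141 CPM), Hyou1 (468.5 CPM), Pdia4 (460.4 CPM), Sel1l (216 CPM) and Txndc5 (212 CPM). The WT liver of mouse 24 stood apart in 6, as the highest for Hspa5 (1486 CPM), Hyou1 (286 CPM), Pdia3 (728 CPM), Sdf2l1 (89.5 CPM) and Sel1l (166 CPM) and as the lowest for Derl1 (147 CPM). In KO kidneys mouse 18 was lowest for Ero1lb (22.6 CPM). In WT kidneys mouse 19 was highest for Edem2 (47.1 CPM), mouse 23 for Sdf2l1 (23.7 CPM) and mouse 24 for Sec61a1 (91.5 CPM). Hyou1 and Sel1l were thus set apart in both liver groups, each time by the mouse that was also highest for Hspa5.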

How the results depend on the processing

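No member passed the test in either tissue or in the interaction under any alternative run, although all-gene calls varied, from 1 with edgeR to 15 with DESeq2, 7 with voom, 4 with no filter and 3 with all libraries in 1 fit in kidney, from 0 to 42, 5, 3 and 21 in liver, and from 0 to 11 with DESeq2 and 1 with voom in the interaction. The number of members lower in KO livers ranged over 5 to 21 with 1 mouse left out and was 15 without mice 16 and 24; the number below 0 in the interaction ranged over 1 to 6 and was 2 with voom, 3 with library totals and 5 without mice 16 and 24. Kidney against liver, library totals left 21 members called in WT mice, of which Canx (0.47), Calu (0.23) and Ero1l were higher in kidney. Atf6 was at 0.013 in WT mice and did not pass. In KO mice Canx was at 0.36 and Calu at 0.19.

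Log2 values that changed sign were mostly near 0 or had wide errors. In kidney, voom gave Creld2 0.054, Xbp1 0.052 and Edem2 0.017. In liver, DESeq2 and its size factors gave Txndc5 0.0024, library totals gave Dnajc3 -0.0035, and voom gave Calu -0.014, P4hb 0.0046, Txndc5 0.011, Ero1lb -0.0034 and Atf6 -0.041. Without mice 16 and 24, liver values were -0.072 for Dnajb11, -0.065 for Dnajc3, -0.024 for Calu, -0.13 for Ero1lb, -0.15 for Atf6 and -0.42 for Derl3. In the interaction, Ppib was -0.035 with voom and -0.013 with library totals, Ero1l was -0.019 with library totals, and without mice 16 and 24 the values were -0.024 for Txndc5, -0.035 for Ero1l, -0.11 for Atf6 and -0.032 for Derl1. The cause was not tested.

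With each mouse left out in turn, kidney values ranged over -0.053 to 0.12 for Ero1l, -0.072 to 0.037 for Edem2, -0.19 to 0.043 for Atf6, -0.18 to 0.046 for Dnajb9, -0.30 to 0.030 for Creld2 and -0.25 to 0.0034 for Xbp1. Liver values ranged over -0.085 to 0.00061 for Sil1, -0.027 to 0.046 for Calu, -0.16 to 0.064 for Pdia3, -0.13 to 0.074 for Pdia6, -0.062 to 0.028 for P4hb, -0.10 to 0.052 for Txndc5, -0.11 to 0.092 for Atf6, -0.11 to 0.053 for Sec61a1, -0.032 to 0.73 for Hspa5, -0.016 to 0.39 for Hsp90b1, -0.14 to 0.17 for Dnajb11, -0.14 to 0.080 for Dnajc3, -0.18 to 0.44 for Sdf2l1, -0.023 to 0.10 for Canx, -0.095 to 0.37 for Pdia4, -0.029 to 0.10 for Ero1l, -0.26 to 0.17 for Ero1lb, -0.010 to 0.44 for Sel1l and -0.64 to 1.64 for Derl3. Interaction values ranged over -0.054 to 0.073 for Ppib, -0.020 to 0.065 for Ero1l, -0.020 to 0.12 for Ern1, -0.051 to 0.10 for Txndc5, -0.18 to 0.30 for Ero1lb, -0.034 to 0.17 for Atf6, -0.16 to 1.93 for Derl3, -0.00046 to 0.12 for Calu, -0.025 to 0.26 for Pdia3, -0.0025 to 0.14 for Sec61a1 and -0.23 to 0.0013 for Xbp1.

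Deviations of same-numbered kidneys and livers correlated with r of 0.0814 to 0.418 over 9 pairs, over 0.1 in 7, and 7 of 9 correlated best with their own number, a hint from the data and not from the design. With the mouse number as a block, 34 members were called between the tissues in WT mice, 34 in KO mice and 0 in the interaction. The share of all genes called with the block is not given here. Without the block it was 71.9% between the tissues in WT mice and 74.7% in KO mice. With library totals 13 members in kidney correlated with Hspa5 at an unadjusted permutation p under 0.05, where 14.6% of all genes did. In liver 22 members did, where 8.03% of all genes did. By r and rho both, 11 members reached it in kidney, against 11.1% of genes, and 11 in liver, against 4.28%. After adjustment 0 members passed in either tissue. Between organs the median r without mice 16 and 24 was 0.17 with library totals.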

Other observations

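The PERK arm, which slows translation and acts through ATF4, was looked at in liver after its values were seen. Trib3, a pseudokinase induced by ATF4 and CHOP, spanned 7.46 to 37.8 CPM in KO livers, highest in mouse 16, and 3.91 to 17.3 CPM in WT livers. Atf4 itself spanned 128 to 222 CPM in KO livers, highest in mouse 18, and 125 to 214 CPM in WT livers, highest in mouse 24. Ddit3, the gene of CHOP, spanned 7.94 to 16.7 CPM in KO livers, highest in mouse 18, and 8.11 to 12.7 CPM in WT livers. Eif2ak3 spanned 16.002 to 31.5 CPM in KO livers, highest in mouse 16, and 12.5 to 18.9 CPM in WT livers. The liver of mouse 16, highest in 27 members, was thus highest in Trib3 and Eif2ak3 but not in Atf4 or Ddit3, and all 4 genes overlapped between the groups.

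The mean of the 34 members relative to the tissue mean, on the log2 scale, was -0.24, -0.29, -0.03, 0.70 and 0.19 in the KO livers of mice 13, 14, 15, 16 and 18, against -0.16, -0.21, -0.15 and 0.20 in the WT livers of mice 19, 20, 22 and 24. In kidney it was -0.01, -0.14, -0.09, 0.15 and -0.21 in KO mice, against 0.01, -0.08, -0.05, 0.22 and 0.19 in the WT mice 19, 20, 22, 23 and 24.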
